A study of Homo sapiens with 9 samples.

Results

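The 10 genes described here encode the core of the microRNA and RNA interference pathway: the Argonaute genes AGO1, AGO2, AGO3 and AGO4, the GW182 scaffold genes TNRC6A, TNRC6B and TNRC6C, and DROSHA, XPO5 and DICER1. They were chosen by gene symbol, with earlier results of these data known, among the 18417 genes that the array annotation names. All 10 were measured, each by 1 probe set that is assigned to no other gene. The measurements are log2 signals from 9 Affymetrix gene arrays of Hep3B, a human hepatocellular carcinoma line. Cells transfected with an siRNA against YAP, cells transfected with a nonsense siRNA and untreated cells gave 3 arrays each. Per the labels, cells grew in full medium for 24 h and for a further 24 h after siRNA transfection with Oligofectamine. The sample titles start with HUH although Hep3B is the line given in their descriptions and cell line entries, and no label says whether the 3 samples of a group were separate cultures, so p-values measure the spread between these samples, which may be technical. The sequences of the siRNAs were not analysed here.

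In the pathway, the nuclear RNase DROSHA cuts primary microRNA transcripts into hairpins, the export receptor exportin 5, encoded by XPO5, carries them to the cytoplasm, and the RNase DICER1 trims them to short duplexes. An Argonaute protein keeps one strand as a guide and pairs it with target mRNAs, and a GW182 protein bound to the Argonaute recruits the enzymes that shorten the poly(A) tail and decay the mRNA. A transfected siRNA enters at the Argonaute step, and AGO2 is the human Argonaute best known for cutting the target. The same proteins thus handle the cell's own microRNAs and the siRNAs used here, and every group that was transfected carried an siRNA, while untreated cells carried none. No group received Oligofectamine without an siRNA. Against untreated cells, the siRNA and the transfection itself thus cannot be told apart.

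YAP1, the gene the siRNA targets, averaged 7.51 ± 0.03 after YAP siRNA, 8.70 ± 0.05 after nonsense siRNA and 8.70 ± 0.08 in untreated cells (SD, n = 3 each). The difference between YAP siRNA and the 6 other arrays had a two-sided exact permutation p of 0.0238, the smallest that this design allows. The RNA came from whole cultures, in which fewer cells with a transcript and less of it per cell cannot be told apart. Hepatocyte markers, ALB and AFP among them, had a mean log2 signal of 10.92 to 10.998 over the YAP siRNA arrays, 10.90 to 11.04 over the nonsense siRNA arrays and 10.92 to 10.94 over the untreated arrays, and 0 of 8 passed in any comparison. Markers of leukocytes (0 of 4) and of stromal and endothelial cells (0 of 5) did not pass either, with list means of 7.001 to 7.30 on all arrays. Among them LYZ averaged 8.91 and COL1A1 8.39 over the 9 arrays, above the median of 7.31 over all genes. The other markers of these lists averaged below that median. On each array, the mean log2 signal of 192 small nucleolar and Cajal body RNA genes was 6.89 to 6.99 after YAP siRNA, 6.98 to 7.05 after nonsense siRNA and 6.89 to 6.999 in untreated cells. YAP siRNA replicate 3, nonsense siRNA replicate 2 and untreated replicate 3 were the lowest of their groups in this measure, and counts are also given without these 3 arrays.

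Differences were tested with limma, a linear model fitted to all genes and all 9 arrays, and a gene passed at a Benjamini-Hochberg adjusted p under 0.05 over all 18417 genes. Between YAP siRNA and nonsense siRNA, AGO2 and AGO4 fell, and 0 of the other 8 genes passed. In that comparison 4.53% of all genes passed, 1.92% as rises and 2.61% as falls. Between YAP siRNA and untreated cells TNRC6A rose and AGO4 fell (3.09% of all genes passed, 1.63% as rises and 1.46% as falls). TNRC6A and AGO2 rose between nonsense siRNA and untreated cells, where 0.614% of all genes passed and 0.337% rose. These comparisons share arrays: the nonsense siRNA arrays are the reference of the first and the numerator of the last.

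**Figure D1:**
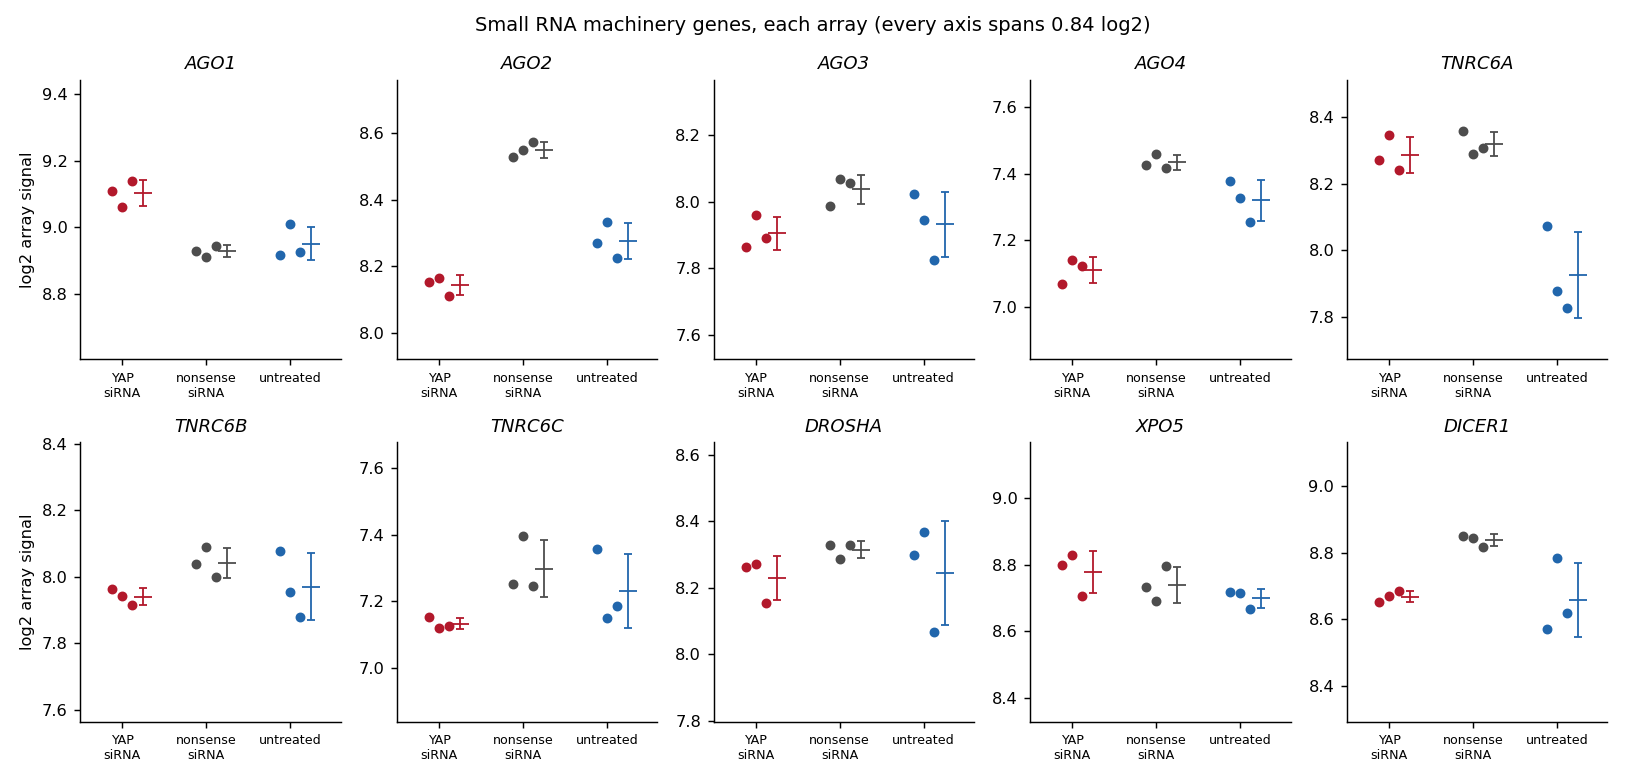
The log2 array signal of the 10 genes is plotted on every array, with YAP siRNA, nonsense siRNA and untreated cells from left to right in each panel; points are arrays and bars are the mean ± SD of 3. AGO2 is highest on the 3 nonsense siRNA arrays (8.53 to 8.57), AGO4 is lowest on the 3 YAP siRNA arrays (7.07 to 7.14), and TNRC6A is lowest on the 3 untreated arrays (7.83 to 8.07).

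AGO2 was lower after YAP siRNA than after nonsense siRNA. Its log2 signal was 8.15, 8.17 and 8.11 after YAP siRNA, 8.53, 8.55 and 8.57 after nonsense siRNA, and 8.27, 8.33 and 8.23 in untreated cells. The 3 groups did not overlap, with nonsense siRNA highest and YAP siRNA lowest. AGO2 fell by 0.41 on the log2 scale between YAP siRNA and nonsense siRNA (SE 0.0509, limma adjusted p = 0.000194), to 75.4% of the nonsense siRNA level. Against untreated cells AGO2 after YAP siRNA differed by -0.13 (95% interval -0.24 to -0.02) and did not pass (adjusted p = 0.209). After nonsense siRNA AGO2 rose by 0.27 against untreated cells (SE 0.0509, adjusted p = 0.0266), to 121% of the untreated level. Of 9 fits on 8 arrays, 6 lost that rise. The adjusted p was 0.0526 on dropping YAP siRNA replicate 1, it was 0.160 and 0.124 for nonsense siRNA replicates 1 and 3, and it was 0.0967, 0.0628 and 0.0844 for untreated replicates 1, 2 and 3. A fit that held the small RNA level constant between arrays as a covariate lost it as well (0.25, adjusted p = 0.0894). The rise was also lost with every probe set of the array tested and from the 2 groups alone. The fall against nonsense siRNA passed in every alternative, with adjusted p-values between 6.35e-06 and 0.00522.

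AGO4, the Argonaute gene that in mice is best known for a role in germ cells, was lowest after YAP siRNA. Its log2 signal was 7.07, 7.14 and 7.12 after YAP siRNA, 7.43, 7.46 and 7.42 after nonsense siRNA, and 7.38, 7.33 and 7.26 in untreated cells. The YAP siRNA arrays lay below all 6 others, and the nonsense siRNA arrays lay above the untreated arrays. AGO4 fell by 0.32 against nonsense siRNA (SE 0.0521, adjusted p = 0.00156) and fell by 0.21 against untreated cells (SE 0.0521, adjusted p = 0.0382). The first of these passed in every alternative that tested AGO4 (adjusted p 3.81e-05 to 0.0155). Of the 9 fits on 8 arrays, 7 lost the call against untreated cells. The adjusted p was 0.193, 0.0954 and 0.0525 on dropping YAP siRNA replicates 1, 2 and 3, it was 0.0635 and 0.0513 for nonsense siRNA replicates 1 and 3, and it was 0.168 and 0.119 for untreated replicates 1 and 2. It was lost as well with quantile normalization (0.0629), with median centring (0.0812), and with the replicate number of the labels as a block (0.0612). The mean log2 signal of AGO4, 7.29, lay just under the median of 7.31 over all genes.

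AGO1, which binds microRNA guides but cuts targets poorly, did not pass. Its log2 signal was 9.11, 9.06 and 9.14 after YAP siRNA, 8.93, 8.91 and 8.95 after nonsense siRNA, and 8.92, 9.01 and 8.93 in untreated cells. All 3 YAP siRNA arrays lay above the 6 other arrays. The difference was 0.17 against nonsense siRNA (SE 0.0510, 95% interval 0.07 to 0.28, adjusted p = 0.0680) and 0.15 against untreated cells (adjusted p = 0.143), and neither passed. With quantile normalization AGO1 passed against nonsense siRNA (0.20, adjusted p = 0.0329), as it did with array weights (0.17, adjusted p = 0.0120).

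AGO3, the remaining Argonaute gene, had log2 signals of 7.86, 7.96 and 7.89 after YAP siRNA, 7.99, 8.07 and 8.06 after nonsense siRNA, and 8.02, 7.95 and 7.83 in untreated cells. The transfected groups did not overlap, and the untreated arrays spread over both. The difference between YAP siRNA and nonsense siRNA was -0.13 (95% interval -0.26 to -0.01, adjusted p = 0.283), and that between YAP siRNA and untreated cells was -0.03 (adjusted p = 0.873).

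The within-array gap between AGO1 and each of the other Argonaute genes was compared between YAP siRNA and nonsense siRNA, a test chosen after the values were seen. The gap was wider after YAP siRNA on all 3 arrays, by 0.58 against AGO2, 0.50 against AGO4 and 0.31 against AGO3. Each of these gave a two-sided exact permutation p of 0.1, the smallest that 3 arrays against 3 allow, among 5 such gaps compared. That outcome was fixed in advance, because AGO1 lay above on all YAP siRNA arrays and AGO2, AGO3 and AGO4 lay below. The gaps therefore add no evidence to the values of the single genes. AGO4, AGO1 and AGO3 are neighbours on chromosome 1, with no annotated gene between AGO4 and AGO1 or between AGO1 and AGO3 in the RefSeq gene table of assembly GRCh38.p14. AGO2 lies on another chromosome. The 3 neighbours thus showed a fall (AGO4), a difference of 0.17 that did not pass (AGO1) and one of -0.13 that did not pass (AGO3) in the same comparison.

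Because AGO4 fell while its neighbours on the same strand did not pass, the 250 bases before a listed start of each are shown, with TNRC6A, which rose in both transfected groups. The sequences are from RefSeq. All 4 windows lie inside the annotated span of their gene. That span begins at base 35869761 for AGO1 and 24610205 for TNRC6A, well before the windows. The windows therefore need not be the main promoters, and which starts these cells use was not measured. Capitals mark matches to 4 motifs, searched on both strands. The core of a TEAD site, through which YAP acts on DNA, was searched as GGAATG. The ETS core, bound by a large family of activators, was searched as CGGAAG. The GC box was searched as GGGCGG, and the CCAAT box was searched as CCAATC.
AGO4 (GRCh38.p14, chr1:35807766-35808015, plus strand): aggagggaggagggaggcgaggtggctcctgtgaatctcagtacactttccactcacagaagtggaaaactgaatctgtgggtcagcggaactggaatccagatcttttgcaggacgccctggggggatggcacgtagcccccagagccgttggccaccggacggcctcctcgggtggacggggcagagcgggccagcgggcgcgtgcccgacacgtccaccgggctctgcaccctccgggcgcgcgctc
AGO1 (GRCh38.p14, chr1:35882959-35883208, plus strand): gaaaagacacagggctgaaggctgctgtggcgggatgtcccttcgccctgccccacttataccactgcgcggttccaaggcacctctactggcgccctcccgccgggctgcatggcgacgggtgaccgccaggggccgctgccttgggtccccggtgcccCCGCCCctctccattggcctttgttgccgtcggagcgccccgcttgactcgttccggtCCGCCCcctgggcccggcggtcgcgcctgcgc
AGO3 (GRCh38.p14, chr1:35930855-35931104, plus strand): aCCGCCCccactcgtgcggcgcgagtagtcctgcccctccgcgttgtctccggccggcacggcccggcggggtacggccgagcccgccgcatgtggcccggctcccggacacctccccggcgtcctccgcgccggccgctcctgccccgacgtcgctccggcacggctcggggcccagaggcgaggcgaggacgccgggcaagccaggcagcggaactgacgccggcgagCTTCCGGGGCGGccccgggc
TNRC6A (GRCh38.p14, chr16:24729401-24729650, plus strand): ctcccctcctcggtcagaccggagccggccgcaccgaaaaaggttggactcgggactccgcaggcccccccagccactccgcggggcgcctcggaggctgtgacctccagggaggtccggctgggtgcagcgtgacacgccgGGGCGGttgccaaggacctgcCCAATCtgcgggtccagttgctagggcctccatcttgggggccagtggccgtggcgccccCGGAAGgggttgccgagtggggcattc

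The AGO4 window held 0 of the 4 motifs, AGO1 held 2 GC boxes, AGO3 held 2 GC boxes and 1 ETS core (the core and the GC box nearest the start adjoin without overlap), and TNRC6A held 1 GC box, 1 ETS core and 1 CCAAT box. Of 35116 promoter windows of this length, 42.64% held a GC box, 16.48% an ETS core, 14.07% a CCAAT box and 11.89% a TEAD core. No TEAD core lay in these 4 windows, which says only that those letters are not there. Of the 9 member windows searched, that of DICER1 held 1, and AGO2 was not among those searched. The GC content was 66.4% for the AGO4 window, 71.6% for AGO1, 80.0% for AGO3 and 71.6% for TNRC6A, where the median over all windows was 58.0%.

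**Figure D2:**
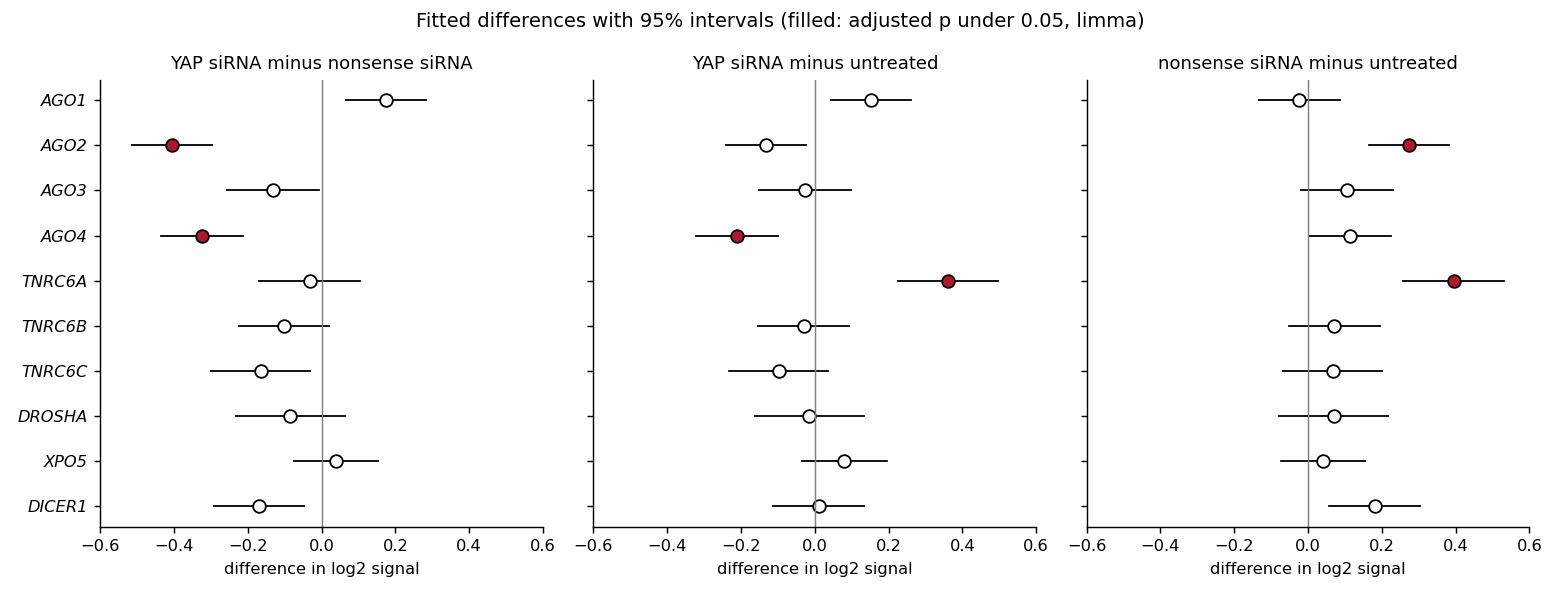
Fitted differences in log2 signal (points) with 95% intervals (lines) are shown for the 10 genes, from left to right for YAP siRNA minus nonsense siRNA, YAP siRNA minus untreated and nonsense siRNA minus untreated; filled points passed. AGO2 (-0.41) and AGO4 (-0.32) are filled on the left, AGO4 (-0.21) and TNRC6A (0.36) in the middle, and AGO2 (0.27) and TNRC6A (0.39) on the right.

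Among the GW182 scaffolds, TNRC6A was higher in both transfected groups than in untreated cells. Its log2 signal was 8.27, 8.35 and 8.24 after YAP siRNA, 8.36, 8.29 and 8.31 after nonsense siRNA, and 8.07, 7.88 and 7.83 in untreated cells. All 6 transfected arrays lay above the 3 untreated arrays, and the transfected groups overlapped each other. TNRC6A rose by 0.36 after YAP siRNA (SE 0.0638, adjusted p = 0.00449) and by 0.39 after nonsense siRNA (SE 0.0638, adjusted p = 0.0157). Taken as 1 contrast, both siRNA groups against untreated cells, it rose by 0.38 (SE 0.0553, adjusted p = 0.00638), to 130% of the untreated level. It was the only one of the 10 genes to pass in this contrast, in which 1.09% of all genes passed and 0.700% rose. Between YAP siRNA and nonsense siRNA it differed by -0.03 (95% interval -0.17 to 0.10, adjusted p = 0.890).

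The untreated arrays were the most spread in TNRC6A, with an SD of 0.13 against 0.05 after YAP siRNA and 0.04 after nonsense siRNA. The rise after YAP siRNA passed in all 9 fits on 8 arrays, the weakest being that lacking YAP siRNA replicate 2 (adjusted p = 0.0344), but not with every probe set of the array tested (0.0614). The rise after nonsense siRNA was lost without nonsense siRNA replicate 1 (0.107) or 3 (0.0679) and without untreated replicate 2 (0.0694) or 3 (0.0554). With the covariate for small RNA it did not pass (0.33, adjusted p = 0.0633), while the rise after YAP siRNA did (0.38, adjusted p = 0.00146). The pooled contrast was lost without untreated replicate 2 (0.0554). With every probe set tested, the rise after nonsense siRNA (0.164) and the pooled contrast (0.110) did not pass either.

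The other scaffold genes did not pass in any comparison. TNRC6B, a paralog of the same function, had log2 signals of 7.97, 7.94 and 7.92 after YAP siRNA, 8.04, 8.09 and 7.998 after nonsense siRNA, and 8.08, 7.96 and 7.88 in untreated cells. TNRC6C, the third paralog, had 7.15, 7.12 and 7.13 after YAP siRNA, 7.25, 7.40 and 7.24 after nonsense siRNA, and 7.36, 7.15 and 7.18 in untreated cells. In both genes the YAP siRNA arrays lay below the nonsense siRNA arrays and overlapped the untreated ones. The differences between YAP siRNA and nonsense siRNA were -0.10 for TNRC6B (adjusted p = 0.446) and -0.17 for TNRC6C (95% interval -0.30 to -0.03, adjusted p = 0.188). The within-array gap between TNRC6A and its paralogs was wider on the 6 transfected arrays than on the 3 untreated arrays, by 0.36 for TNRC6B and 0.39 for TNRC6C. The groups did not overlap in either gap, and each had a two-sided exact permutation p of 0.0238, the smallest possible here. This test was chosen after the values were seen, when all 6 transfected arrays were known to lie above the untreated arrays in TNRC6A. Between both siRNA groups and untreated cells TNRC6B differed by 0.02 and TNRC6C by -0.02. The gaps thus largely restate the TNRC6A rise of 0.38 and add no evidence to it.

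DROSHA, XPO5 and DICER1, whose products make, export and trim the hairpins, did not pass in any comparison. DICER1 had log2 signals of 8.65, 8.67 and 8.68 after YAP siRNA, 8.85, 8.85 and 8.82 after nonsense siRNA, and 8.57, 8.78 and 8.62 in untreated cells. The nonsense siRNA arrays lay above all 6 others. The difference was -0.17 between YAP siRNA and nonsense siRNA (SE 0.0578, adjusted p = 0.131), 0.18 between nonsense siRNA and untreated cells (adjusted p = 0.133) and 0.01 between YAP siRNA and untreated cells (95% interval -0.11 to 0.13). With array weights the first of these passed (-0.18, adjusted p = 0.0168).

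DROSHA had 8.26, 8.27 and 8.15 after YAP siRNA, 8.33, 8.29 and 8.33 after nonsense siRNA, and 8.30, 8.37 and 8.07 in untreated cells. Untreated replicate 3 was the lowest of all 9 arrays, and the groups otherwise lay close together. The difference between YAP siRNA and nonsense siRNA was -0.09 (95% interval -0.23 to 0.06, adjusted p = 0.654). XPO5 had 8.80, 8.83 and 8.71 after YAP siRNA, 8.73, 8.69 and 8.80 after nonsense siRNA, and 8.72, 8.71 and 8.67 in untreated cells. The XPO5 groups overlapped in every comparison, and the difference between YAP siRNA and nonsense siRNA was 0.04 (95% interval -0.08 to 0.15, adjusted p = 0.829).

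The 10 genes were chosen with earlier results of these data known, so the counts below describe them and test nothing. All but AGO4 and TNRC6C lay at percentiles 68.6 to 89.2 of mean signal, while the shares of all genes cover every signal level. Across the 10 genes, differences between YAP siRNA and nonsense siRNA were below 0 in 8 and above 0 in 2. With the covariate for small RNA, those of DROSHA (0.04) and TNRC6A (0.045), both short of the threshold, lay above 0. In 7 of the 10 (AGO2, AGO3, AGO4, TNRC6B, TNRC6C, DROSHA and DICER1) all 3 YAP siRNA arrays lay below all 3 nonsense siRNA arrays, where 8.71% of all genes did, and with AGO1, whose YAP siRNA arrays lay above, 8 of 10 did not overlap (20.2% of all genes). The 3 nonsense siRNA arrays lay above the 3 untreated arrays in 4 (AGO2, AGO4, TNRC6A and DICER1), where 8.90% of all genes did, and these 4 were all that did not overlap in either direction (22.7% of all genes). Only AGO2 and AGO4 had YAP siRNA arrays all below the untreated arrays, where 10.3% of all genes did, and with AGO1 and TNRC6A above, 4 of 10 did not overlap (20.5% of all genes). The median difference over the 10 genes was -0.12 between YAP siRNA and nonsense siRNA, 0.09 between nonsense siRNA and untreated cells and -0.02 between YAP siRNA and untreated cells, while over all genes it was 0.01, -0.02 and -0.01. Between nonsense siRNA and untreated cells the partner lists described below had medians of 0.04 to 0.11, and the hepatocyte markers 0.07. These lists had a higher median signal than the 10 genes. The 0.09 was thus not particular to the 10 genes. Without the 3 arrays of lowest small RNA level, the first count was 7, beside 23.1% of all genes. The second was 5, beside 23.9%, and the third was 3, beside 29.4%. Leaving arrays out can only keep or raise such counts, and 2 arrays against 2 separate more easily. These 3 values therefore cannot show whether the counts hold. Median centring of the arrays gave 6 (7.91% of all genes), 4 (12.1%) and 1 (6.95%), and quantile normalization gave 7 (7.78%), 3 (8.63%) and 2 (8.63%).

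Genes with a pattern most like that of AGO2 were ranked by Pearson's r over the 9 arrays, among 590 genes of at least the median signal whose group means spanned at least 0.3. The arrays form 3 groups, so r mainly follows the group means and is given as a measure of likeness only. The 5 highest were PRTG (0.981), which encodes a protein of the immunoglobulin superfamily, PTAR1 (0.965), SUZ12 (0.964), a subunit gene of the Polycomb repressive complex 2, AFG2A (0.958) and IL1RAP (0.957), the interleukin-1 receptor accessory protein gene. The lowest were NUDCD3 (-0.975), the stress granule protein gene G3BP2 (-0.970) and MESD (-0.964), which encodes a chaperone of lipoprotein receptors. SUZ12 had log2 signals of 9.03, 9.04 and 8.86 after YAP siRNA, 9.54, 9.43 and 9.51 after nonsense siRNA, and 9.07, 9.19 and 9.18 in untreated cells. As in AGO2, its 3 groups did not overlap, with nonsense siRNA highest. It fell by 0.52 between YAP siRNA and nonsense siRNA (adjusted p = 0.000118), a value that bears on the ranking and is given as a description.

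**Figure D3:**
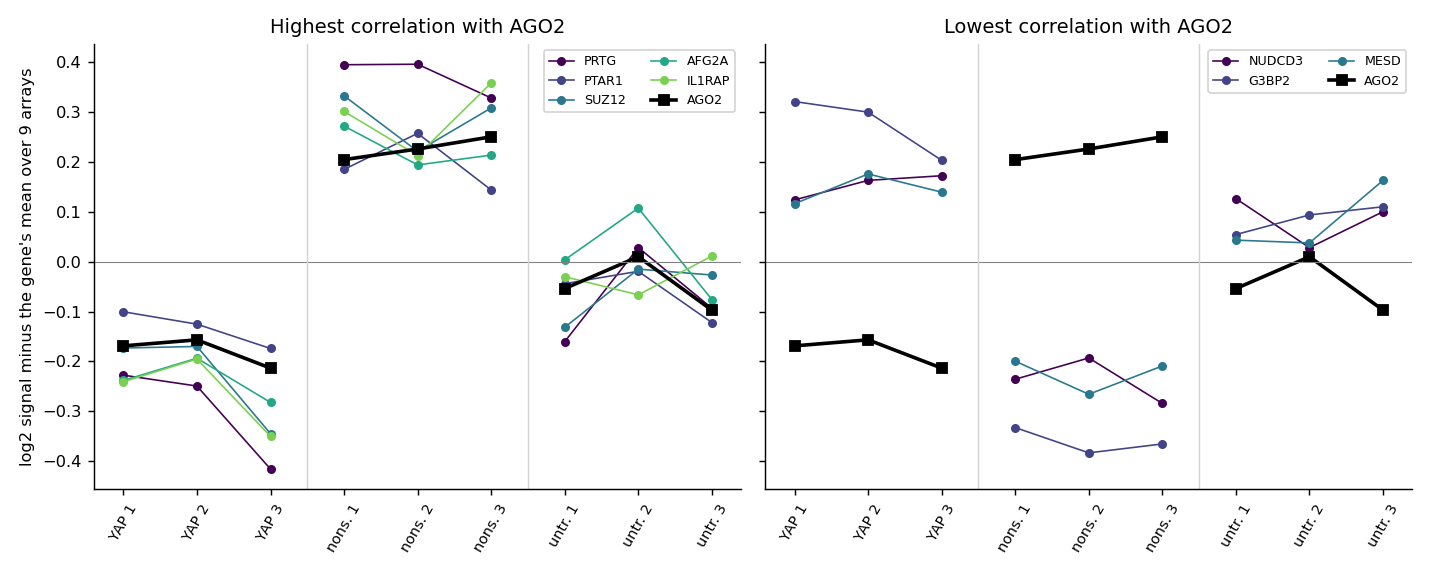
Log2 signal minus each gene's mean over the 9 arrays is plotted by array, with YAP siRNA, nonsense siRNA and untreated cells from left to right and black squares for AGO2; the left panel holds the 5 genes of highest correlation with AGO2 and the right panel the 3 of lowest. The genes on the left peak on the nonsense siRNA arrays as AGO2 does (r 0.957 to 0.981), and those on the right are lowest there (r -0.964 to -0.975).

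Around the core, most genes that work with it did not pass, and counts are given beside the share of all genes that passed. Between YAP siRNA and nonsense siRNA that share was 4.53%. Genes named below without passing (DGCR8, TARBP2, HSP90AA1, HSP90AB1, XRN1 and LIN28B) were picked after their values were seen. Of 11 measured partners of microRNA processing, 1 fell and 0 rose between YAP siRNA and nonsense siRNA (2.61% and 1.92% of all genes). It was NCBP1, the large subunit gene of the nuclear cap-binding complex, with log2 signals of 9.21, 9.15 and 9.09 after YAP siRNA, 9.54, 9.46 and 9.56 after nonsense siRNA, and 9.26, 9.46 and 9.32 in untreated cells. NCBP1 fell by 0.37 (SE 0.0603, adjusted p = 0.00163), and its YAP siRNA arrays lay below all 6 others. DGCR8, the RNA-binding partner of DROSHA, differed by -0.06 (adjusted p = 0.714), and TARBP2, a partner of DICER1, by -0.01 (adjusted p = 0.969). The median difference of this list was -0.06, beside 0.01 over all genes.

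Of 18 measured genes for loading or binding Argonaute proteins, 2 fell and 1 rose between YAP siRNA and nonsense siRNA (2.61% and 1.92% of all genes). LIMD1, which encodes a LIM domain protein that bridges Argonaute and the cap-binding machinery, fell by 0.29 (SE 0.0543, adjusted p = 0.00454) and by 0.24 against untreated cells (adjusted p = 0.0221). The protein is also known as an inhibitor of the LATS kinases upstream of YAP. FMR1, the fragile X RNA-binding protein gene, fell by 0.27 (adjusted p = 0.0155), and SND1, which encodes a nuclease found with Argonaute, rose by 0.22 (adjusted p = 0.0325). The chaperone genes HSP90AA1 and HSP90AB1, whose products hold Argonaute open for loading, differed by 0.01 (adjusted p = 0.965) and 0.05 (adjusted p = 0.766). IPO8, an importin gene linked to Argonaute transport, rose by 0.25 between YAP siRNA and untreated cells (adjusted p = 0.0498). The median difference of the list between YAP siRNA and nonsense siRNA was -0.00, beside 0.01 over all genes.

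LIMD1 passed against nonsense siRNA in every alternative at 0.05, while several of the other calls rested on single arrays. FMR1 did not pass when YAP siRNA replicate 3 was absent (adjusted p = 0.0581), or nonsense siRNA replicate 1 (0.0679) or 3 (0.0897). SND1 was lost on leaving out any YAP siRNA array (0.0976, 0.110 and 0.0760 for replicates 1, 2 and 3) or nonsense siRNA replicate 1 (0.148) or 3 (0.167). With the covariate for small RNA, FMR1 (0.148) and SND1 (0.140) did not pass. Against untreated cells LIMD1 missed the threshold in the absence of YAP siRNA replicate 2 (0.0891) or 3 (0.0595) or untreated replicate 1 (0.0557) or 2 (0.103). IPO8 failed on dropping YAP siRNA replicate 1 (0.179) or 2 (0.223), nonsense siRNA replicate 1 (0.0508) or 3 (0.0541), or untreated replicate 1 (0.127) or 3 (0.171).

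The 24 deadenylation, decapping and decay genes carry out the step after GW182 proteins. Of these, 2 fell and 1 rose between YAP siRNA and nonsense siRNA (2.61% and 1.92% of all genes), with a list median of -0.06. CNOT11, a scaffold subunit gene of the CCR4-NOT deadenylase, had log2 signals of 9.37, 9.21 and 9.29 after YAP siRNA, 9.68, 9.53 and 9.70 after nonsense siRNA, and 9.46, 9.58 and 9.66 in untreated cells. The YAP siRNA arrays lay below all 6 others. CNOT11 fell by 0.35 against nonsense siRNA (adjusted p = 0.00579) and by 0.28 against untreated cells (adjusted p = 0.0326). CNOT6, a catalytic subunit gene of the same complex, fell by 0.23 against nonsense siRNA (adjusted p = 0.0173), and EDC3, a decapping enhancer gene, rose by 0.23 (adjusted p = 0.0384). XRN1, the gene of the exonuclease that degrades decapped mRNA, differed by -0.19 between YAP siRNA and nonsense siRNA (adjusted p = 0.101) and by 0.25 between nonsense siRNA and untreated cells (adjusted p = 0.0700).

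With every probe set of the array tested, CNOT11 (adjusted p = 0.0633) and CNOT6 (0.0549) did not pass against nonsense siRNA. CNOT6 missed it too on dropping YAP siRNA replicate 1 (0.0633) or 3 (0.0686) or nonsense siRNA replicate 1 (0.119), and with the covariate for small RNA (0.154). EDC3 did so on dropping YAP siRNA replicate 1 (0.0821), 2 (0.171) or 3 (0.0594), nonsense siRNA replicate 1 (0.142) or 3 (0.143) or untreated replicate 2 (0.0544). Against untreated cells CNOT11 did so on dropping YAP siRNA replicate 1 (0.0502), 2 (0.183) or 3 (0.0540) or untreated replicate 2 (0.111) or 3 (0.121).

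Of 11 genes of microRNA tailing and turnover, 1 fell and 0 rose between YAP siRNA and nonsense siRNA (2.61% and 1.92% of all genes). The list median was -0.05. ERI1, which encodes an exonuclease that trims siRNAs and histone mRNA ends, had log2 signals of 8.40, 8.32 and 8.24 after YAP siRNA, 8.80, 8.62 and 8.96 after nonsense siRNA, and 8.52, 8.50 and 8.66 in untreated cells. ERI1 fell by 0.48 (SE 0.0772, adjusted p = 0.00165), and the YAP siRNA arrays lay below all 6 others. LIN28B, which encodes an inhibitor of let-7 maturation, differed by -0.07 between YAP siRNA and nonsense siRNA (adjusted p = 0.827) and by 0.28 between YAP siRNA and untreated cells (adjusted p = 0.157). Between YAP siRNA and untreated cells, 1 gene rose (IPO8) and 2 fell (LIMD1 and CNOT11) over these 4 partner lists. Of all genes, 1.63% rose and 1.46% fell there. After nonsense siRNA, relative to untreated cells, 0 of their genes passed by limma, and 2 of 11, 8 of 18, 7 of 24 and 4 of 11 had an unadjusted p under 0.05, beside 19.5% of all genes.

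**Figure D4:**
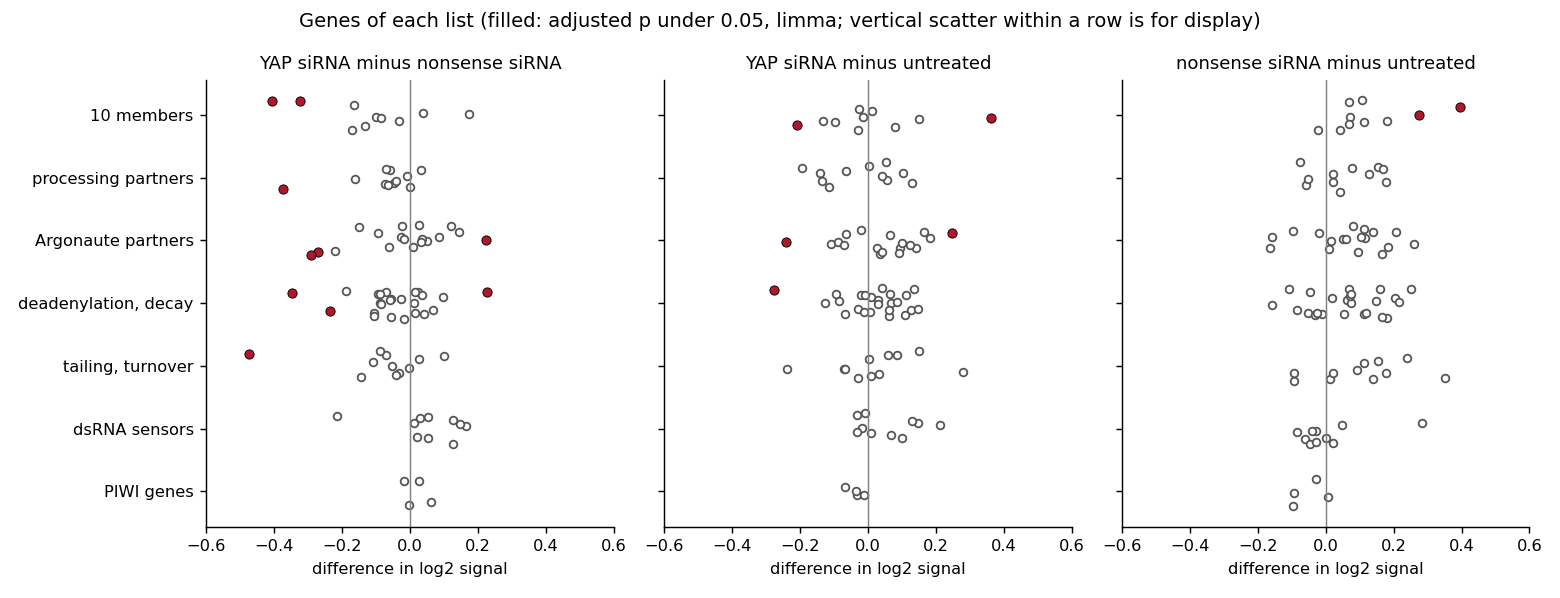
Each point is the fitted difference in log2 signal of 1 gene, by list from top to bottom, for YAP siRNA minus nonsense siRNA, YAP siRNA minus untreated and nonsense siRNA minus untreated from left to right; filled points passed. Besides AGO2 and AGO4, the filled genes on the left are 6 falls, from ERI1 (-0.48) to CNOT6 (-0.23), and 2 rises, SND1 (0.22) and EDC3 (0.23).

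MicroRNA precursors, the substrates of this machinery, were represented by 173 genes. Most had a low signal: the median of their mean log2 signals was 6.33, beside 7.31 over all genes. How far low signal shapes the counts and signs below was not tested, so they are not read as results about microRNAs. Of these, 0 rose and 1 fell between YAP siRNA and nonsense siRNA, beside 1.92% and 2.61% of all genes. The median was 0.01, as over all genes, and 6 of 173 had an unadjusted limma p under 0.05, beside 15.8% of all genes. Between YAP siRNA and untreated cells 126 of 173 differences were below 0 (56.4% of all genes were) and 15 had an unadjusted p under 0.05 (15.8% of all genes). Between nonsense siRNA and untreated cells 133 of 173 were below 0 (59.3% of all genes), with a median of -0.05 beside -0.02 over all genes, and 25 had an unadjusted p under 0.05 (19.5% of all genes). A precursor probe set reads the precursor or its longer transcript, not the mature microRNA. Mature sequences from the 3 precursors that passed in a comparison, for MIR21 the 5p arm, are shown with the seed, bases 2 to 8, in capitals, since the seed is the part that pairs with targets. They are from RefSeq, and no 2 of these arms share a seed.
hsa-miR-21-5p (GRCh38.p14, chr17:59841273-59841294, plus strand): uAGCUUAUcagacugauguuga
hsa-miR-197-5p (GRCh38.p14, chr1:109598901-109598923, plus strand): cGGGUAGAgagggcagugggagg
hsa-miR-197-3p (GRCh38.p14, chr1:109598940-109598961, plus strand): uUCACCACcuucuccacccagc
hsa-miR-193a-5p (GRCh38.p14, chr17:31560016-31560037, plus strand): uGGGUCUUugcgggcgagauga
hsa-miR-193a-3p (GRCh38.p14, chr17:31560050-31560071, plus strand): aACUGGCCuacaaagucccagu

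MIR21, the precursor gene of a microRNA that is abundant in many tumours, was, like AGO2, highest after nonsense siRNA. Its log2 signal was 7.15, 7.27 and 7.23 after YAP siRNA, 7.70, 7.54 and 7.56 after nonsense siRNA, and 7.29, 7.27 and 7.45 in untreated cells. The nonsense siRNA arrays lay above all 6 others. MIR21 fell by 0.38 between YAP siRNA and nonsense siRNA (SE 0.0636, adjusted p = 0.00196), and the differences were -0.13 between YAP siRNA and untreated cells and 0.26 between nonsense siRNA and untreated cells (adjusted p = 0.0779). MIR21 lies inside VMP1, whose transcript can extend across it, and VMP1 was therefore examined after the values were seen. The VMP1 probe set averaged 10.29 ± 0.08 after YAP siRNA, 10.33 ± 0.11 after nonsense siRNA and 10.26 ± 0.06 in untreated cells (SD, n = 3 each), a difference of -0.04 between YAP siRNA and nonsense siRNA (95% interval -0.18 to 0.09, adjusted p = 0.850).

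MIR197 was lower after YAP siRNA than in untreated cells, with log2 signals of 7.56, 7.55 and 7.71 after YAP siRNA, 7.72, 7.78 and 7.71 after nonsense siRNA, and 7.91, 7.79 and 7.91 in untreated cells. It fell by 0.27 (SE 0.0586, adjusted p = 0.0193), and the call did not hold on dropping YAP siRNA replicate 1 (0.115) or 2 (0.117) or untreated replicate 1 (0.0981) or 3 (0.0655). MIR193A had 8.04, 7.99 and 8.16 after YAP siRNA, 7.97, 8.08 and 7.998 after nonsense siRNA, and 8.26, 8.21 and 8.30 in untreated cells. All 6 transfected arrays lay below the 3 untreated arrays, and both siRNA groups together fell by 0.22 (SE 0.0495, adjusted p = 0.0488). Of the 9 fits on 8 arrays, 7 lost that call. The adjusted p was 0.128 and 0.121 on dropping YAP siRNA replicates 1 and 2, it was 0.132 and 0.0949 for nonsense siRNA replicates 1 and 3, and it was 0.182, 0.112 and 0.139 for untreated replicates 1, 2 and 3. It was 0.0661 with median centring, 0.0568 with a variance trend, 0.0724 with the replicate block and 0.187 with every probe set tested.

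**Figure D5:**
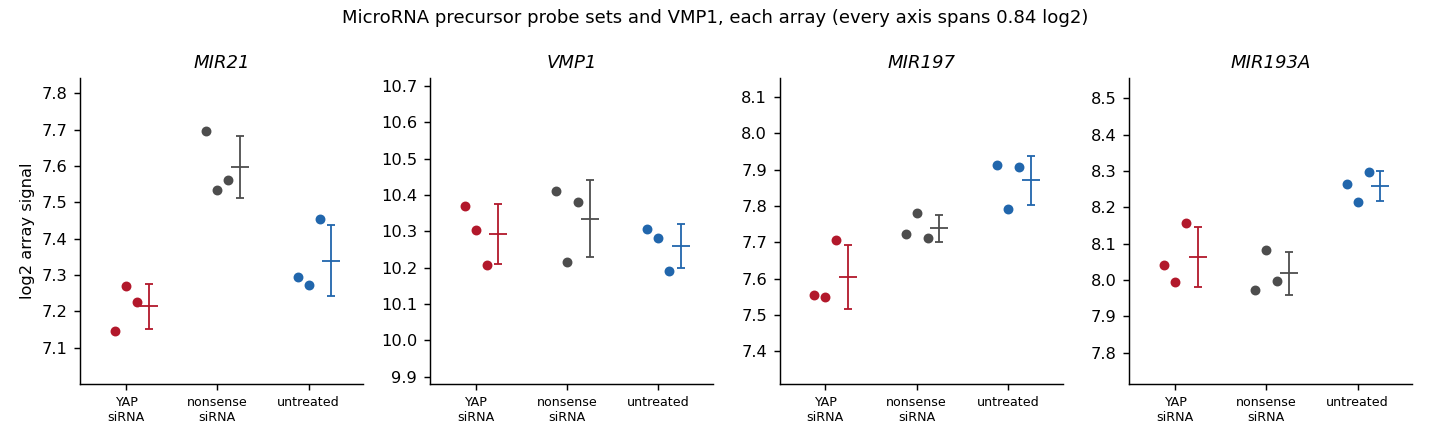
The log2 array signal of the MIR21, VMP1, MIR197 and MIR193A probe sets is plotted on every array, with YAP siRNA, nonsense siRNA and untreated cells from left to right; points are arrays and bars are the mean ± SD of 3. MIR21 is highest on the nonsense siRNA arrays (7.54 to 7.70), MIR197 (7.79 to 7.91) and MIR193A (8.21 to 8.30) are highest on the untreated arrays, and the 3 groups of VMP1 overlap.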

How the data were processed

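The authors deposited a value for each of 33297 probe sets on each array, which was read as a log2 signal because of its range. How background, probes and arrays were combined into it is not stated in the labels used here. Per the labels' protocols the hybridised material was biotinylated cRNA. The deposited values were not rescaled.

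The platform annotation gave 1 gene to 19460 probe sets, several genes to 1754 and did not list 12083. For 769 genes with more than 1 probe set, that of highest mean was kept. The limma package (3.58.1, under R 4.3.3) estimated 1 mean per group from the 9 arrays together, with moderated variances, and Benjamini-Hochberg adjustment covered all 18417 genes. The code was tested on simulated data. Named genes were the 10 members, YAP1, up to 4 passing genes per list and comparison, passing precursors, and the genes most and least like AGO2; others (DGCR8, TARBP2, HSP90AA1, HSP90AB1, XRN1, LIN28B, VMP1, RIGI and EIF2AK2) were picked after their values were seen. Members and lists were chosen with earlier results of these data known. Between same-numbered arrays of different groups, residual r lay between -0.34 and 0.34, and was 0.04, 0.25 and 0.34 for YAP siRNA with untreated. Between arrays of different number it lay between -0.34 and 0.47, highest for YAP siRNA replicate 3 with nonsense siRNA replicate 2. These values do not settle whether the numbers pair the samples. Alternatives changed the scaling, filter, probe set choice, variance model, arrays and threshold. Figures were drawn with matplotlib 3.10.9.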

Additional observations from a re-analysis of the deposited data

How the results depend on the processing

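No difference that passed changed sign under any alternative, while 13 of the 40 fitted differences of the 10 genes changed sign under at least 1 alternative, none of them past the threshold. The count of the 10 genes that passed between YAP siRNA and nonsense siRNA (2) was 1 among genes at or above the median signal, where AGO4 was not tested, and 4 with array weights, and it was 2 in each fit on 8 arrays. Between YAP siRNA and untreated cells (2) it was 1 with quantile normalization, with median centring, among genes at or above the median signal, with a variance trend, from the 2 groups alone, and at an adjusted p under 0.01; it was 0 with every probe set tested, and 1 to 2 on 8 arrays. Between nonsense siRNA and untreated cells (2) it was 1 from the 2 groups alone, 0 with every probe set tested, with the small RNA covariate and at 0.01, and 0 to 2 on 8 arrays; for both siRNA groups (1) it was 0 with every probe set tested and 0 to 1 on 8 arrays. Over all genes, the counts for YAP siRNA against nonsense siRNA (834), YAP siRNA against untreated (569), nonsense siRNA against untreated (113) and both siRNA groups against untreated (201) were 424, 205, 0 and 4 with every one of the 33297 probe sets tested by limma (4645 had an unadjusted p under 0.05 where 0 passed), 2404, 1759, 2620 and 2040 with array weights, and 396, 250, 11 and 26 at 0.01. Without the 3 arrays of lowest small RNA level, chosen after seeing the data, they were 1287, 1560, 2319 and 2240. The covariate gave 451, 890 and 27 for the first 3, and median centring 49 and the 2 groups alone 67 for nonsense siRNA against untreated. On 8 arrays they ranged from 426 to 1231, 279 to 775, 11 to 1470 and 12 to 1029. The lowest of each came without nonsense siRNA replicate 1, YAP siRNA replicate 2, nonsense siRNA replicate 1 and untreated replicate 1, and the highest without nonsense siRNA replicate 2, except for YAP siRNA against untreated, where it came without YAP siRNA replicate 3. Median centring left 1 of the 10 genes with all YAP siRNA arrays below untreated (6.95% of all genes), in place of 2 (10.3%). The YAP1 difference was -1.20 to -1.16 on 8 arrays. With the replicate number as a block, 1 of the 10 genes passed between YAP siRNA and untreated cells. The all-gene counts were then 65 for nonsense siRNA against untreated and 129 for both. No label says whether the numbers pair the samples. The causes of these shifts were not tested.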

Other observations

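Double-stranded RNA sensors, which detect foreign RNA, did not pass in any comparison (0 of 10 by limma). The median of their mean log2 signals was 6.64, under the median of 7.31 over all genes, so the lack of calls does not show a lack of response. Between YAP siRNA and nonsense siRNA, 4 of 10 had an unadjusted limma p under 0.05, beside 15.8% of all genes. Of these 4, all but EIF2AK2 lay above 0. Both sensors named here were picked after their values were seen. RIGI, a cytoplasmic sensor gene, had a mean log2 signal of 7.04 ± 0.02 after YAP siRNA, 6.87 ± 0.11 after nonsense siRNA and 6.82 ± 0.14 in untreated cells (SD, n = 3 each). EIF2AK2, the gene of the kinase PKR, averaged 8.06 ± 0.13 after YAP siRNA, 8.28 ± 0.09 after nonsense siRNA and 7.99 ± 0.09 in untreated cells, and its difference of 0.28 between nonsense siRNA and untreated cells did not pass (limma adjusted p = 0.0822). The germline Argonaute genes PIWIL1, PIWIL2, PIWIL3 and PIWIL4 had mean log2 signals of 6.16 to 6.39, under the median of 7.31 over all genes, and 0 of 4 passed in any comparison.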
